A study of Oryza sativa with 24 samples.

Results

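The short arm of rice chromosome 4 was described from the peak lists of DNA methylation and 3 histone marks. Its members were all listed regions on chromosome 4 with a midpoint below 8.7 Mb, a choice by position that used no measured value. They numbered 6924 of the 410072 regions in the 16 lists of the series, and were set against 28126 regions of the long arm of the same chromosome. The first 2 Mb after the short arm belonged to neither arm, so the long arm began beyond them.

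The material was shoots of seedlings grown for 4 weeks to the 4-leaf stage. There were 4 lines: a pair of reciprocal F1 hybrids, named Nipponbare/93-11 and, for the opposite cross, 93-11/Nipponbare, and their parents, the japonica cultivar Nipponbare and the indica cultivar 93-11. Which parent of each cross bore the seed is not told by the labels. Methylated DNA was profiled by a protocol named for McrBC, which is a nuclease specific for methylated DNA, and H3K4me3, H3K9ac and H3K27me3 by chromatin immunoprecipitation with Upstate antibodies. Each mark in each line was 1 library of whole shoots, so that no difference between lines has a replicate error, and marks listed at the same place need not lie in the same cells. The lists give chromosome, start and end of each region and no height or score, and the read depth behind them is unknown.

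H3K4me3 and H3K9ac mark the starts of active genes, H3K27me3 is set by Polycomb complexes at silent or poised genes, and dense DNA methylation in plants covers mainly transposons and other repeats. Heterochromatin is chromatin that stays condensed, is rich in repeats and poor in active genes. The short arm of rice chromosome 4 is known from cytology as largely heterochromatic, while the far part of the long arm is gene-rich euchromatin. No mark of constitutive heterochromatin such as H3K9me2 is among the lists used here, so the label was checked only against methylation and the 3 histone marks.

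The short arm held more DNA methylation peaks and fewer peaks of each histone mark per Mb than the long arm, in all 4 lines. DNA methylation reached 74.7 peaks per Mb in Nipponbare/93-11, 75.7 in 93-11/Nipponbare, 77.1 in Nipponbare and 71.4 in 93-11 on the short arm, against 60.4, 60.3, 58.4 and 56.2 on the long arm in the same order of lines. H3K4me3 had 49.4, 47.6, 45.9 and 41.0 peaks per Mb on the short arm, against 87.8, 85.5, 79.9 and 80.7 on the long arm. The arms did not overlap for either mark: the lowest short-arm value for methylation lay above the highest long-arm value, and the reverse held for H3K4me3.

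H3K9ac, the acetylation that accompanies H3K4me3 at active starts, had 51.1, 48.2, 50.2 and 44.4 peaks per Mb on the short arm and 94.0, 88.7, 88.3 and 85.3 on the long arm, again in the order Nipponbare/93-11, 93-11/Nipponbare, Nipponbare, 93-11. H3K27me3 had 31.4, 31.1, 27.4 and 29.2 peaks per Mb on the short arm and 57.9, 59.2, 49.3 and 54.3 on the long arm. The Polycomb mark was thus as thin on the short arm, relative to the long arm, as the marks of active starts. The ratio of short-arm to long-arm density, as the geometric mean of the 4 lines, was 1.27 for DNA methylation, 0.550 for H3K4me3, 0.544 for H3K9ac and 0.540 for H3K27me3. An exact two-sided sign-flip permutation test over the lines gave p = 0.13 for each mark, the smallest p that 4 lines allow, with all 4 lines on the same side. The lines are also not independent, since each hybrid carries both parents' genomes.

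DNA methylation was the mark listed most often on the short arm. The arm held 650 methylation peaks in Nipponbare/93-11, 659 in 93-11/Nipponbare, 671 in Nipponbare and 621 in 93-11. The H3K4me3 lists had 430, 414, 399 and 357 peaks there, the H3K9ac lists 445, 419, 437 and 386, and the H3K27me3 lists 273, 271, 238 and 254. Methylation peaks covered 16.7, 17.5, 15.5 and 14.8% of the bases of the short arm, against 11.6, 11.3, 10.2 and 9.73% of the long arm. H3K4me3 peaks covered 6.73, 6.69, 6.10 and 5.40% of the short arm, against 13.4, 14.2, 12 and 12.6% of the long arm. On both measures methylation exceeded H3K4me3 on the short arm, and H3K4me3 exceeded methylation on the long arm as a whole.

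The contrast was large against the outer long arm and small against the part of the long arm next to the stretch left out. The first 8.7 Mb of the long arm, a stretch as long as the short arm and chosen after the values along the chromosome were seen, had 49.7, 47.6, 46.4 and 41.7 H3K4me3 peaks per Mb. The short arm's values divided by these were 0.995, 1, 0.988 and 0.983, and the exact 95% intervals of the 4 ratios ran from 0.847 at the lowest to 1.15 at the highest. Over the rest of the long arm H3K4me3 ranged from 98.3 to 108.7 peaks per Mb.

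DNA methylation behaved alike. Its short-arm density divided by that of the first 8.7 Mb of the long arm was 1.01 in Nipponbare/93-11, 0.98 in 93-11/Nipponbare, 0.93 in Nipponbare and 1.07 in 93-11, and over the rest of the long arm it had 45.0 to 52.8 peaks per Mb. H3K27me3 was the mark with the lowest short-arm density against the near piece, with ratios of 0.86, 0.83, 0.88 and 0.91. In 93-11/Nipponbare the exact 95% interval of that ratio was 0.71 to 0.98, which covers counting error only. H3K9ac lay between, with ratios of 0.904, 0.963, 0.92 and 0.98, all below 1. The short arm was thus closer in density to the near piece of the long arm than to the rest of it for all 4 marks.

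**Figure D1:**
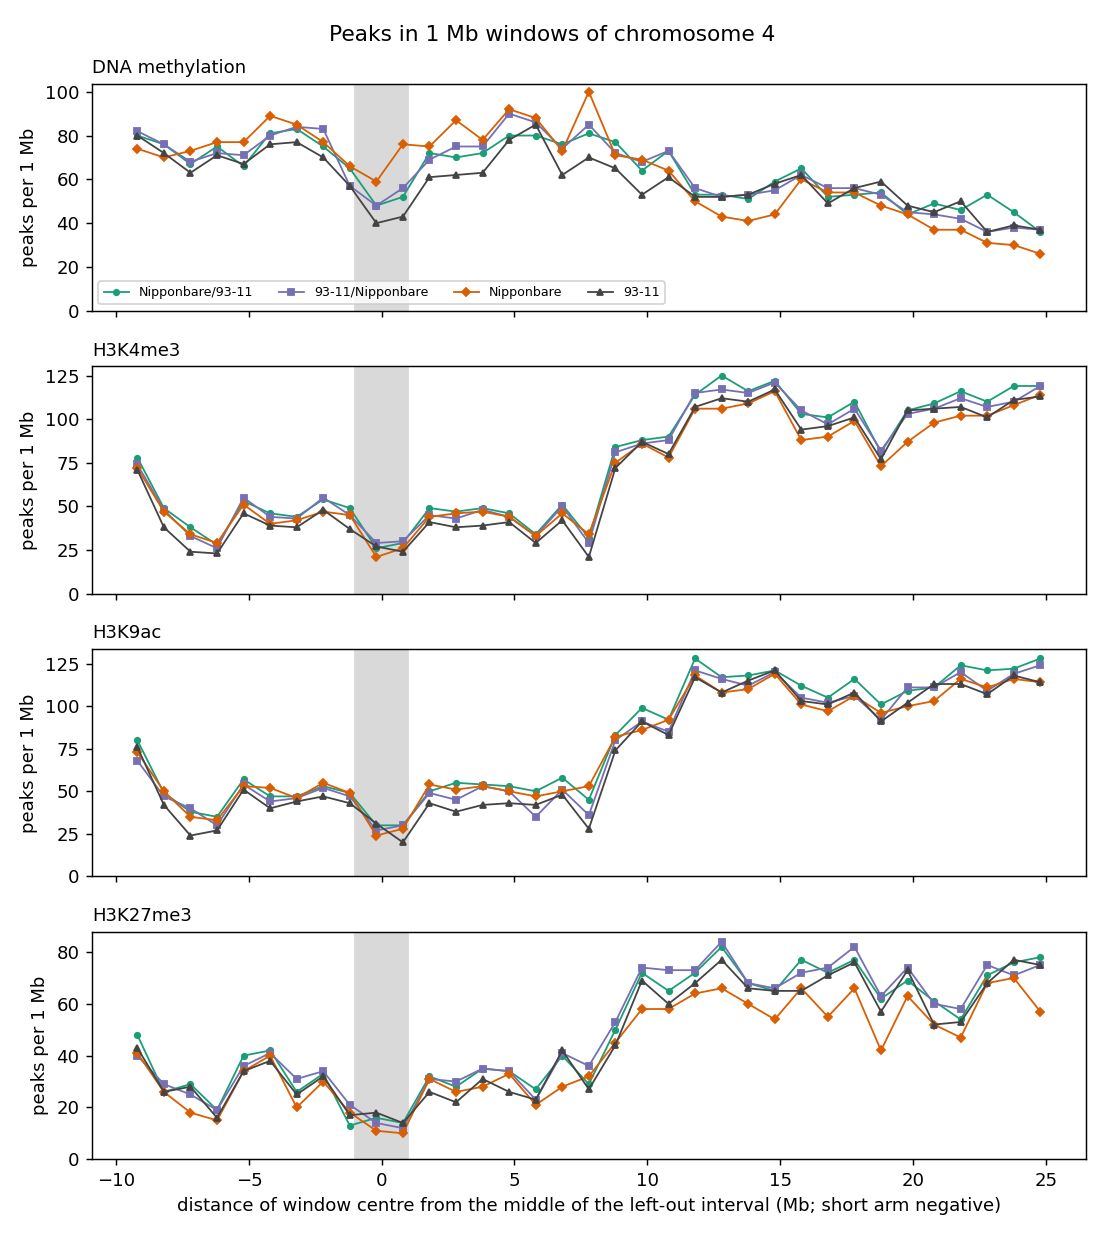
Peaks per 1 Mb window along chromosome 4 (x axis: distance in Mb from the middle of the stretch left out, which is shaded, with the short arm at negative distances; y axis: number of peaks), a panel for each mark and a line for each of the 4 rice lines. H3K4me3 has 28, 26, 29 and 23 peaks in its poorest short-arm window, between 3 and 4 Mb, in the order Nipponbare/93-11, 93-11/Nipponbare, Nipponbare and 93-11.

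**Figure D2:**
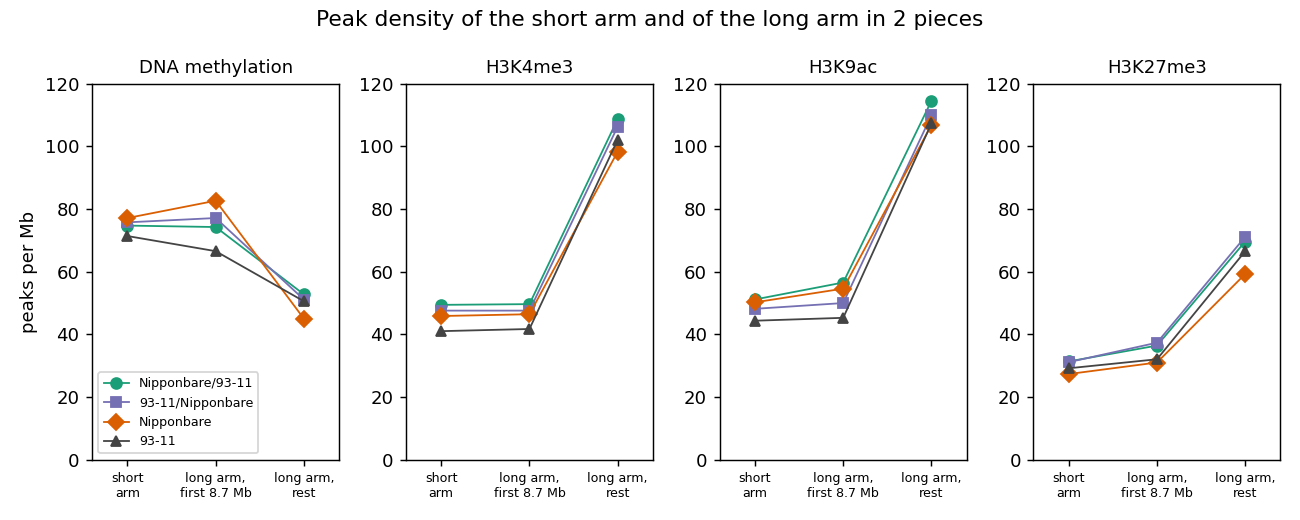
Density of each mark (y axis: peaks per Mb, from 0) in the short arm, the first 8.7 Mb of the long arm and the rest of the long arm, with a point for each line joined across the pieces. The short arm and the first piece of the long arm lie together for H3K4me3 in all 4 lines, with ratios of 0.983 to 1, and the rest of the long arm lies at 98.3 to 108.7.

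Within the short arm H3K4me3 and H3K9ac were densest at its outer end in every line. The first Mb held 78 H3K4me3 peaks in Nipponbare/93-11, 74 in 93-11/Nipponbare, 72 in Nipponbare and 71 in 93-11, as against 28, 26, 29 and 23 in the Mb from 3 to 4. The first Mb stood at the 44.8, 44.0, 44.0 and 46.2 percentile of the 366 windows of 1 Mb over the 12 nuclear chromosomes, so it was an ordinary window of the genome. The window from 3 to 4 Mb stood at the 0.820, 0.546, 1.64 and 0.546 percentile, among the poorest in H3K4me3 anywhere.

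The same windows held the most and the fewest peaks of the other histone marks in Nipponbare, by whose counts they were chosen. H3K9ac had 80, 68, 73 and 76 peaks from 0 to 1 Mb and 35, 30, 33 and 27 from 3 to 4 Mb. H3K27me3 had 48, 40, 41 and 43 peaks from 0 to 1 Mb and 19, 19, 15 and 16 from 3 to 4 Mb. For H3K27me3 the outer end did not stand out in every line: the most of any window was 41 in 93-11/Nipponbare, above its 40 from 0 to 1 Mb. For H3K9ac the fewest of any short-arm window in 93-11 was 24, below its 27 from 3 to 4 Mb. Both marks thus thinned out in every line where H3K4me3 did, though the H3K9ac low point of 93-11 lay in another window. All 8 whole windows of the short arm lay below the genome's median window for the 3 histone marks in every line, and 17 of the 24 whole windows of the long arm held more H3K4me3 peaks than any window of the short arm.

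DNA methylation varied less along the short arm. Its 8 windows held 66 to 83 peaks in Nipponbare/93-11, 68 to 84 in 93-11/Nipponbare, 70 to 89 in Nipponbare and 63 to 80 in 93-11, with the fewest in Nipponbare from 1 to 2 Mb and the most from 5 to 6 Mb. At least 7 of the 8 windows lay above the genome's median window for methylation in each line. Some windows lay at the median or close to it: the window from 2 to 3 Mb stood at the 50.3 and 48.6 percentile in Nipponbare/93-11 and 93-11/Nipponbare. In windows of 100 kb, methylation peaks outnumbered H3K4me3 peaks in 64 of 87 short-arm windows in Nipponbare/93-11, 66 in 93-11/Nipponbare, 65 in Nipponbare and 71 in 93-11. These make 73.6, 75.9, 74.7 and 81.6% of the short-arm windows, against 30.2, 31.0, 32.7 and 29.8% of the 245 windows of the long arm. Such windows were not counted apart for the first 8.7 Mb of the long arm. Methylation peaks outnumbered H3K4me3 peaks in that piece too, at 74.3, 77.1, 82.6 and 66.6 per Mb against 49.7, 47.6, 46.4 and 41.7.

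Long stretches of the short arm carried no H3K4me3 peak in any line. There were 25 such stretches over 50 kb, which made up 24.5% of the arm. The long arm held 37, which made up 11.66% of it, so such stretches were not particular to the short arm. Its longest, from 17417221 to 17611502 (194.3 kb), exceeded any of the short arm and held 16, 18, 22 and 11 methylation peaks. The longest of the short arm lay from 3299990 to 3452009 (152.0 kb) in the window poorest in H3K4me3. It was not empty of marks: DNA methylation was listed there 7 times in Nipponbare/93-11, 9 times in 93-11/Nipponbare, 8 times in Nipponbare and 12 times in 93-11, and H3K9ac 3, 3, 3 and 4 times.

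The next longest of the short arm lay from 3947175 to 4097620 (150.4 kb), with 9, 9, 7 and 10 methylation peaks. The third ran from 1531796 to 1639444 (107.6 kb), with 10, 10, 7 and 9 methylation peaks and a single H3K9ac and a single H3K27me3 peak, both in Nipponbare. All 3 stretches held methylation peaks in every line. Their lack of H3K4me3 follows from the way they were chosen. H3K9ac was not used in the choice, but it overlaps most H3K4me3 peaks, so its low counts are not a separate result. Neighbouring H3K4me3 peaks were correspondingly farther apart on the short arm, with median gaps of 10386, 10478, 11518 and 11582 bp, against 6148, 6234, 6910 and 6485 bp on the long arm.

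Peaks of DNA methylation were wider on the short arm, and peaks of the histone marks narrower. The median methylation peak measured 1993 bp in Nipponbare/93-11, 1945 in 93-11/Nipponbare, 1735 in Nipponbare and 1786 in 93-11, against 1616, 1609, 1430 and 1464 bp on the long arm. The median H3K4me3 peak measured 1280, 1311, 1232 and 1238 bp, against 1396, 1541, 1408 and 1450 bp on the long arm. All 4 lines showed the same direction for both marks, and the ratio of medians, as a geometric mean over lines, was 1.22 for methylation and 0.874 for H3K4me3.

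H3K9ac and H3K27me3 followed H3K4me3. Median H3K9ac widths were 1338, 1399, 1427 and 1339 bp on the short arm against 1490, 1522, 1562 and 1510 bp on the long arm. Median H3K27me3 widths were 1396, 1437, 1422 and 1337 bp against 1546, 1532, 1479 and 1479 bp. The ratios were 0.904 and 0.926, with the exact two-sided sign-flip permutation p again at 0.13 for each of the 4 marks. Set against the first 8.7 Mb of the long arm alone, the narrower histone peaks were not seen: the mean log2 ratios of median width were then 0.014 for H3K4me3, 0.038 for H3K9ac and 0.039 for H3K27me3. Methylation peaks remained wider than in that piece, where their medians were 1787, 1784, 1525 and 1656 bp.

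**Figure D3:**
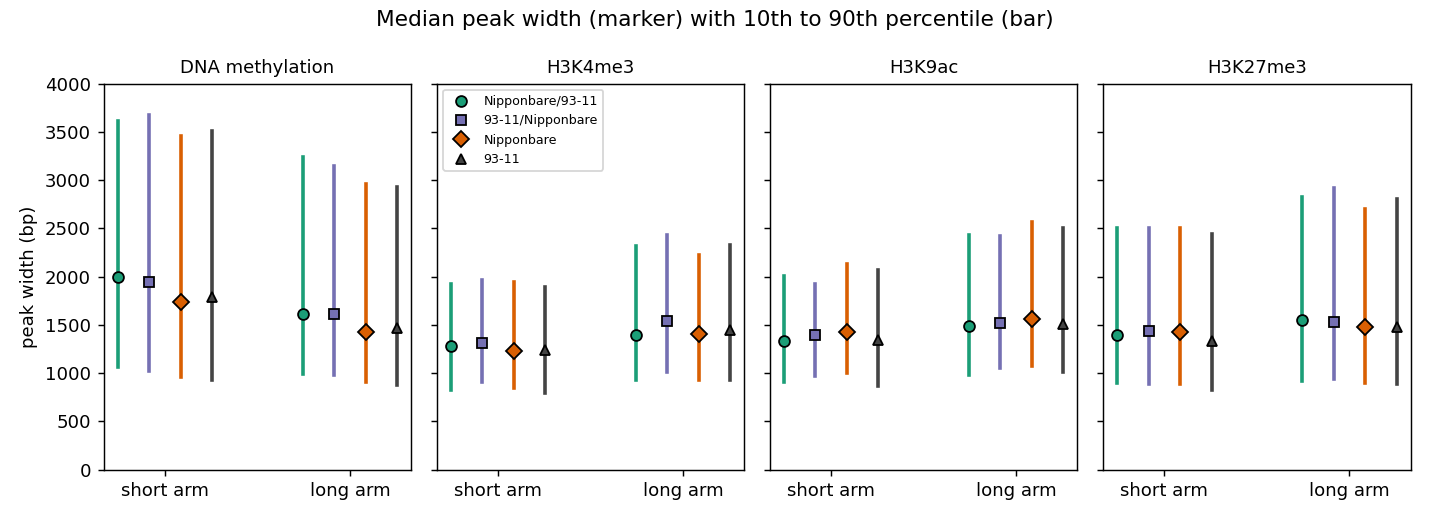
Median width of the peaks of each mark (y axis: width in bp, from 0) on the short arm and, to its right, the long arm, with a marker for each of the 4 lines and a bar over the percentiles named in the title. DNA methylation medians are higher on the short arm (1735 to 1993 bp against 1430 to 1616 bp) and H3K4me3 medians lower (1232 to 1311 bp against 1396 to 1541 bp).

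The widest peaks of the arm were of DNA methylation. Methylation peaks of 5000 bp or more numbered 22, 33, 13 and 19 in Nipponbare/93-11, 93-11/Nipponbare, Nipponbare and 93-11, or 3.38, 5.01, 1.94 and 3.06% of the arm's methylation peaks, against 2.23, 1.82, 1.47 and 1.16% on the long arm. On the other nuclear chromosomes 622 of 22087, 686 of 22441, 373 of 21888 and 346 of 20237 methylation peaks were over 5000 bp. These shares lay between those of the arms in each line. The widest of all, from 6007772 to 6022977 (15205 bp), was listed in 93-11/Nipponbare, and the region was also methylated in Nipponbare/93-11 and 93-11 and not listed in Nipponbare. The widest region methylated in all 4 lines ran from 4591337 to 4600566 (9229 bp). Neither region overlapped any histone peak in any line.

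The widest methylation peak of Nipponbare, from 7159440 to 7169872 (10432 bp), was listed in no other line. It overlapped H3K27me3 in 93-11/Nipponbare and 93-11. A mirror case, from 4612031 to 4619749 (7718 bp), was methylated in both hybrids and Nipponbare and not in 93-11. The methylation region from 3874852 to 3883779 (8927 bp) was listed in both parents and in neither hybrid, and that from 2540352 to 2546012 (5660 bp) in both hybrids and neither parent.

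No histone peak of the short arm reached 5000 bp in any list. The widest H3K4me3 peak of Nipponbare, from 1008909 to 1013623 (4714 bp), lay where H3K4me3, H3K9ac and H3K27me3 were listed in all 4 lines. The same place held DNA methylation in 93-11/Nipponbare and 93-11 and not in the other lines. The next, from 2021577 to 2025889 (4312 bp), had H3K4me3 and H3K9ac in all 4 lines, while H3K27me3 was listed there in both parents and in neither hybrid. The third, from 647371 to 651086 (3715 bp), had H3K4me3 in both hybrids and Nipponbare but not in 93-11, where H3K9ac was nevertheless listed.

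Where H3K4me3 was present, it kept its usual partner. On the short arm 93.5% of H3K4me3 peaks in Nipponbare/93-11 overlapped H3K9ac, with 91.8% in 93-11/Nipponbare, 93.2% in Nipponbare and 92.7% in 93-11, against 92.4, 90.3, 91.7 and 90.5% on the long arm. Over the 12 nuclear chromosomes the shares were 93.1, 90.9, 92.3 and 92.2%, so the short arm lay near the background of all H3K4me3 peaks. An H3K4me3 peak overlapped H3K27me3 in 50.7, 48.8, 47.6 and 51.8% of cases on the short arm, against 51.5, 51.1, 43.8 and 49.0% on the long arm. The genome-wide shares were 52.3, 51.9, 46.7 and 51%. The difference between the arms ran in both directions over the lines (exact two-sided sign-flip permutation p = 0.625), so the arms were not told apart by this combination. Among peaks of at least their list's median width, or with both boundaries moved outward by 1 Mb, the short arm was higher in all 4 lines, by a mean of 8.36 and 3.95 percentage points (exact p = 0.13 for each).

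H3K27me3 on the short arm likewise lay mostly where the marks of active starts were listed. It overlapped H3K4me3 in 78.4, 72.7, 79.8 and 72.4% of its short-arm peaks, against 76.8, 73.3, 70.6 and 72.3% on the long arm. On the other nuclear chromosomes these were 78.2, 75.0, 75.5 and 74.5%. H3K27me3 with no other mark made up 13.9, 17.7, 8.40 and 16.1% of its short-arm peaks, against 14.2, 15.9, 17.1 and 17.3% on the long arm. The other nuclear chromosomes had 13.2, 15.0, 13.9 and 16.0%. Nipponbare had the lowest share of lone H3K27me3 on the short arm and close to the highest on the long arm. Its short-arm share rests on 20 of 238 peaks of a single library.

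DNA methylation at H3K4me3 peaks was where the lines diverged. The share of short-arm H3K4me3 peaks that overlapped methylation was 17.9% in Nipponbare/93-11 (exact Clopper-Pearson 95% interval 14.4 to 21.9%), 16.7% in 93-11/Nipponbare (13.2 to 20.6%), 6.77% in Nipponbare (4.51 to 9.69%) and 16.0% in 93-11 (12.3 to 20.2%). On the long arm the shares were 9.01, 10.01, 7.24 and 7.57%, and over the 12 nuclear chromosomes 10.9, 12.1, 7.79 and 9.55%. The short arm was thus above the long arm in both hybrids and 93-11, by 8.90, 6.66 and 8.39 percentage points, and not in Nipponbare, where the difference was -0.474 (95% interval -3.05 to 2.65). The exact two-sided sign-flip permutation test over lines gave p = 0.25, with a mean difference of 5.87 points. It was 1.34 points where the overlap had to cover 50% of both peaks and 3.24 points among peaks of at least their list's median width. Such intervals cover counting error only, and the difference between lines is one between single libraries.

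Of the first 8.7 Mb of the long arm, 12, 12.1, 11.4 and 10.2% of H3K4me3 peaks overlapped methylation, so the 4 lines lay together there and Nipponbare was not low. The same pattern was seen on the short arm for H3K9ac, with methylation at 18.4, 17.9, 9.38 and 17.9% of its peaks against 10.4, 11.1, 9.18 and 9.22% on the long arm and 12.2, 13, 9.94 and 11% genome-wide. For H3K27me3 it was 17.2, 16.2, 12.2 and 16.1% against 9.93, 12.4, 9.26 and 8.78% on the long arm, where 13, 14.2, 10.5 and 10.8% was the genome-wide share. Nipponbare had the lowest share on the short arm for each of the 3 histone marks. With a 50% overlap of both peaks the mean difference for H3K27me3 was 2.31 points, where any overlap gave 5.35.

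The number of methylation peaks did not follow this order, since Nipponbare had the most on the short arm (671). The methylation lists of all 4 lines were therefore set on 1 list of H3K4me3 peaks, that of Nipponbare. Of the 399 H3K4me3 peaks of Nipponbare, 17% overlapped a methylation peak of Nipponbare/93-11, 15.5% one of 93-11/Nipponbare, 6.77% one of Nipponbare and 16.3% one of 93-11. On the long arm these were 9.33, 9.74, 7.24 and 8.16%, and genome-wide 10.6, 10.9, 7.79 and 9.94%, so Nipponbare methylation was lowest there too. On the 357 H3K4me3 peaks of 93-11 on the short arm, the shares were 18.2, 16.0, 10.1 and 16.0%, with Nipponbare again lowest but less far below.

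The same held at the places where H3K4me3 was listed in all 4 lines. Of 294 such short-arm regions, 62 overlapped methylation in Nipponbare/93-11, 58 in 93-11/Nipponbare, 31 in Nipponbare and 61 in 93-11, or 21.1, 19.7, 10.5 and 20.7%. Of the 1731 such regions of the long arm the shares were 11.3, 11.2, 8.49 and 9.65%. Methylation in both hybrids and 93-11 but not in Nipponbare was found at 27 of the 294 (9.18%), against 55 of 1731 on the long arm (3.18%). The mirror pattern, in both hybrids and Nipponbare but not in 93-11, was found at 1 short-arm region and 16 of the long arm. None of these shares was counted genome-wide or for the near piece of the long arm alone. Whether they are particular to the short arm was thus not tested. The 3 widest of the 27, chosen after their values were seen, lay from 6932711 to 6934989, 676673 to 678727 and 5092134 to 5094133.

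Seen from the methylation peaks, the short arm was more isolated from histone marks. Any histone mark overlapped 17.1, 16.4, 8.64 and 14.0% of its methylation peaks, against 22.1, 24.0, 17.9 and 18.3% on the long arm. The genome-wide shares were 21.9, 23.3, 16.6 and 19.4%, above the short arm in each line. The direction was the same in all 4 lines (exact two-sided sign-flip permutation p = 0.13), and it was not seen against the first 8.7 Mb of the long arm, where the mean difference was 0.983 percentage points. With a 50% overlap of both peaks the mean difference from the whole long arm shrank to -0.330 points, where any overlap gave -6.55.

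A peak of H3K4me3 on the short arm had methylation nearby more often than one on the long arm as a whole. The median distance from an H3K4me3 peak to the nearest methylation peak was 1552 bp in Nipponbare/93-11, 1692 in 93-11/Nipponbare, 1957 in Nipponbare and 2070 in 93-11, against 4234, 4180, 5634 and 5040 bp on the long arm. Methylation lay within 2 kb of 56.0, 53.9, 50.6 and 49.3% of short-arm H3K4me3 peaks, against 33.3, 33.5, 28.0 and 29.8% of those of the long arm. In every line the short-arm share was above that of the long arm, by counts of peaks from single libraries. These distances were not measured genome-wide or for the near piece of the long arm alone. In the same line order that piece had 74.3, 77.1, 82.6 and 66.6 methylation peaks per Mb. The short arm had 74.7, 75.7, 77.1 and 71.4. Whether the shorter distances are particular to the short arm was thus not tested.

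A few short-arm regions carried all 4 marks. In Nipponbare, 14 of 399 H3K4me3 peaks (3.51%) overlapped H3K9ac, H3K27me3 and DNA methylation together, against 3.21% on the long arm and 3.58% genome-wide, so the combination was near its background. The 3 widest of them, from 4757404 to 4759834, 4725330 to 4727584 and 3236569 to 3238789, had all 4 marks listed in all 4 lines.

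**Figure D4:**
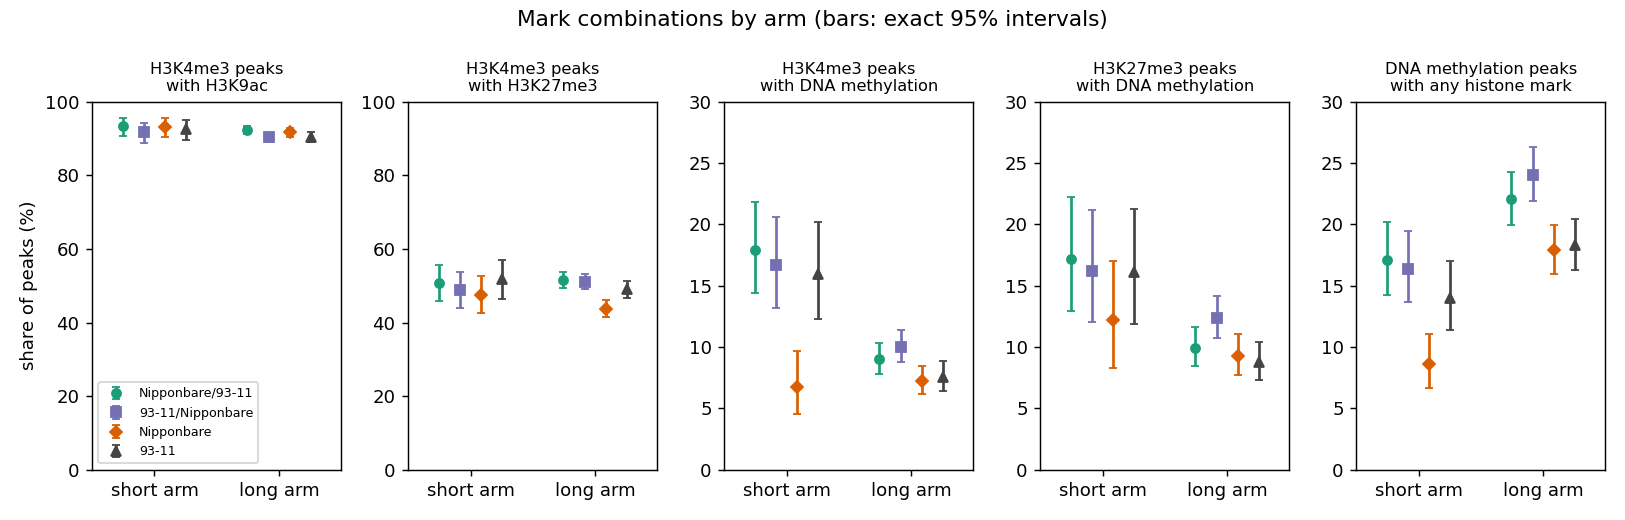
Share of peaks with another mark (y axis: percent) on the short arm and, to its right, the long arm, for each line, with exact 95% intervals. H3K4me3 with DNA methylation lies at 17.9, 16.7 and 16.0% on the short arm in Nipponbare/93-11, 93-11/Nipponbare and 93-11 and at 6.77% in Nipponbare, against 7.24 to 10.01% on the long arm.

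The parents shared fewer histone peaks on the short arm than on the long arm. Of the H3K4me3 peaks of Nipponbare, 297 of 399 (74.4%, 69.9 to 78.7%) were listed in 93-11 on the short arm, against 89.8% on the long arm and 86.6% genome-wide. The difference of -15.3 percentage points had a 95% interval of -20.1 to -10.9. For H3K9ac 72.8% of Nipponbare peaks were listed in 93-11 against 85.4% on the long arm and 83% genome-wide, a difference of -12.6 points (-17.3 to -8.24). For H3K27me3 it was 69.3% against 80.1% and 77.7% genome-wide, a difference of -10.8 points (-17.5 to -4.56).

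The other direction was smaller for the 2 marks of active starts. Of the 93-11 peaks of H3K4me3, 82.9% were listed in Nipponbare on the short arm, against 88.8% on the long arm and 88.9% genome-wide. The figures for H3K9ac were 82.9, 88.7 and 87.9%, and for H3K27me3 65.7, 72.7 and 72.4%. Short-arm peaks of Nipponbare thus went unlisted in 93-11 more often than the converse for H3K4me3 and H3K9ac. DNA methylation was shared least, with 53.1% of Nipponbare peaks listed in 93-11 against 56.4% on the long arm and 54.2% genome-wide, and 57.6% of 93-11 peaks listed in Nipponbare against 57.8% and 58.3%. The methylation difference between arms in the second direction was -0.177 percentage points with any overlap, -5.80 with a 50% overlap of both peaks, and -7.29 against the first 8.7 Mb of the long arm.

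The low sharing of H3K4me3 was not uniform along the arm. In the first Mb 62 of 72 Nipponbare H3K4me3 peaks were listed in 93-11 (86.1%), close to the genome-wide share, and between 2 and 3 Mb 18 of 34 (52.9%). In the first 8.7 Mb of the long arm 77.5% of Nipponbare H3K4me3 peaks and 71.8% of H3K9ac peaks were listed in 93-11, and over the rest of the long arm 92.9 and 89.2%. For these Nipponbare peaks the short arm lay near the adjoining piece of the long arm. Peaks of 93-11 did not all follow: H3K4me3 peaks were listed in Nipponbare in 82.9% of cases on the short arm, 86.2% in the adjoining piece and 89.4% in the rest, and methylation peaks in 57.6, 64.9 and 52.7%.

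The 2 hybrids shared more with each other than the parents did. Of the Nipponbare/93-11 peaks on the short arm, 81.1% of methylation, 91.4% of H3K4me3, 89.2% of H3K9ac and 84.6% of H3K27me3 were listed in 93-11/Nipponbare, against 77.5, 93.5, 90.1 and 87.4% on the long arm. The intervals of all 4 differences between arms included 0. Regions listed in all 4 lines made up 28.2% of 1039 merged methylation regions of the short arm, 61.8% of 476 for H3K4me3, 57.5% of 522 for H3K9ac and 42.9% of 368 for H3K27me3. On the long arm these were 30.6, 75.1, 68.3 and 49.9%, and over the genome 29.9, 73.4, 67.7 and 49.6%.

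**Figure D5:**
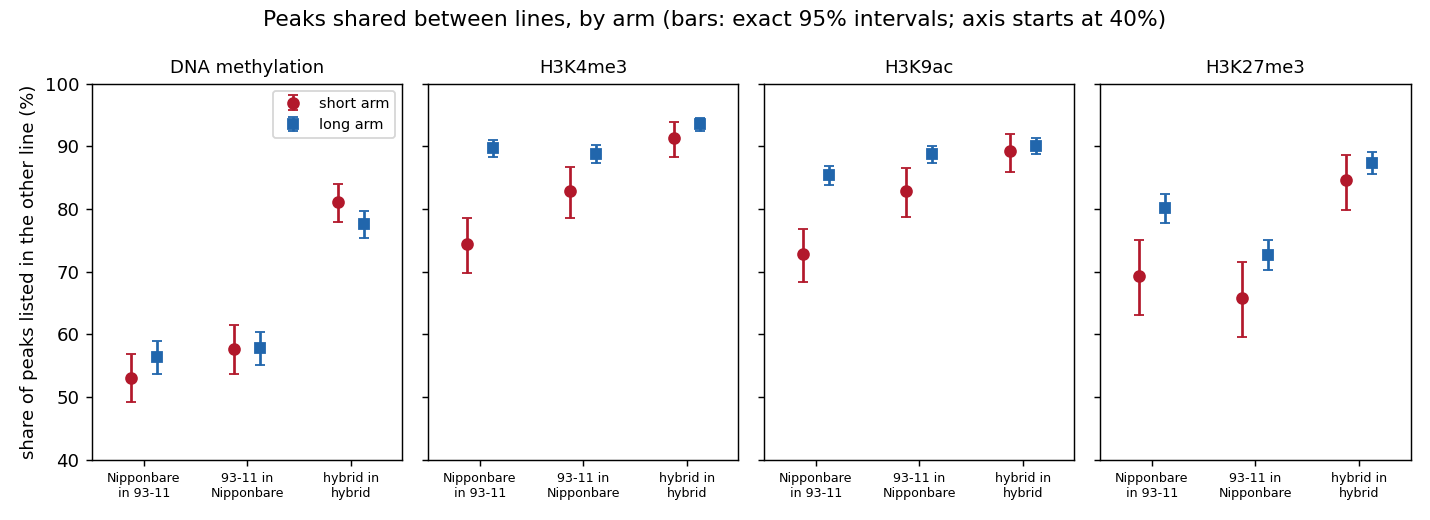
Share of one line's peaks listed in another (y axis: percent, starting at 40) on the short arm (circles) and, to their right, the long arm (squares), by mark, for both directions between the parents and for Nipponbare/93-11 peaks in 93-11/Nipponbare, with exact 95% intervals. The widest gap is for H3K4me3 peaks of Nipponbare listed in 93-11, at 74.4% on the short arm against 89.8% on the long arm.

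Among H3K4me3 peaks on the short arm that only 1 parent had, most were listed in both hybrids. Of the 102 Nipponbare-only peaks, 62 were in both hybrids (60.8%, 50.6 to 70.3%), and of the 61 93-11-only peaks, 37 (60.7%, 47.3 to 72.9%). Genome-wide these were 65 and 58.1%, so the short arm was near the background. Of the remaining Nipponbare-only peaks, 22 were in Nipponbare/93-11 alone, 3 in 93-11/Nipponbare alone and 15 in neither hybrid, or 21.6, 2.94 and 14.7% of the 102. Genome-wide these shares were 16.7, 3.96 and 14.3%, the same order.

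For H3K9ac on the short arm, Nipponbare-only peaks were listed in both hybrids more often than 93-11-only peaks. Of 119 Nipponbare-only peaks, 57.1% (47.7 to 66.2%) were in both hybrids, and of 66 93-11-only peaks, 36.4% (24.9 to 49.1%), where the genome-wide shares were 54.6 and 49.1%. On the long arm the H3K9ac shares were 50.3 and 47.9%. The difference between arms was 6.83 percentage points for Nipponbare-only peaks (-4.13 to 17.5) and -11.5 for 93-11-only peaks (-24.8 to 2.82). Both intervals ran from negative to positive values, so the arms were not told apart. For H3K27me3 the shares in both hybrids were 42.5% of 73 and 36.8% of 87, against 47.3 and 47% genome-wide. Methylation peaks of Nipponbare alone were in both hybrids in 26.7% of 315 cases, and those of 93-11 alone in 44.5% of 263, against 24.3 and 48% genome-wide. Peaks found only in 93-11 were thus kept in both hybrids more often than those found only in Nipponbare for methylation, which was also the order genome-wide.

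Single-parent H3K4me3 peaks mostly carried H3K9ac in the same parent. Of the 102 Nipponbare-only peaks 86.3% had H3K9ac in Nipponbare and 17.6% in 93-11, and of the 61 93-11-only peaks 77.0% had it in 93-11 and 27.9% in Nipponbare. For Nipponbare-only peaks of the long arm the shares were 85.1 and 18.9%, close to those of the short arm. For 93-11-only peaks of the long arm they were less close, at 64.0% in 93-11 and 45.0% in Nipponbare. On the other nuclear chromosomes the shares were 86.4 and 15.0% for Nipponbare-only peaks, and 73.8% in 93-11 and 39.2% in Nipponbare for 93-11-only peaks. At most of these short-arm places H3K9ac was thus also unlisted in the parent that lacked H3K4me3. For Nipponbare-only peaks this was near the share on the other chromosomes.

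Hybrid peaks on the short arm with no counterpart in either parent were few for the marks of active starts. They numbered 12 of 430 H3K4me3 peaks in Nipponbare/93-11 and 10 of 414 in 93-11/Nipponbare, where 3.81 and 2.98% was the genome-wide share, and 15 of 445 and 11 of 419 for H3K9ac, where it was 4.04 and 3.11%. For methylation they were 75 of 650 (11.5%) and 70 of 659 (10.6%), with 12.7 and 10.1% genome-wide, and for H3K27me3 24 of 273 and 30 of 271, with 9.5 and 9.76% genome-wide. The short-arm shares were near the background for all 4 marks.

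Nipponbare-only H3K4me3 peaks on the short arm also came in runs. A run was taken as 5 or more consecutive Nipponbare peaks of which none was listed in 93-11, a definition used with earlier results of these data known. The short arm held 3 runs and the long arm 1, and no run of 93-11-only peaks of that length lay on chromosome 4. A further Nipponbare run of 5 peaks, from 10069195 to 10155334, lay in the stretch left out. The lack of 93-11 runs rests on the cutoff. Runs of 4 93-11-only peaks lay on the long arm and in the stretch left out, and a Nipponbare run of 4 on the long arm. Runs were counted on chromosome 4 only, so no genome-wide number stands beside them. The first run of the short arm, from 1354368 to 1527398 (173.0 kb), held 6 H3K4me3 peaks in each hybrid, 6 in Nipponbare and 0 in 93-11. H3K27me3 had 3 peaks there in every line. DNA methylation was present there in all lines, with 9, 12, 12 and 9 peaks.

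The second run, from 2899067 to 3006866 (107.8 kb), separated the hybrids. It held 6 H3K4me3 peaks in Nipponbare/93-11, 2 in 93-11/Nipponbare, 6 in Nipponbare and 0 in 93-11, but 6, 7, 6 and 0 H3K9ac peaks and 11, 9, 11 and 11 methylation peaks. The third, from 7923030 to 8025852 (102.8 kb), held 10, 9, 8 and 3 H3K4me3 peaks and 11, 12, 13 and 6 methylation peaks. The low H3K4me3 counts of 93-11 follow from the way runs were chosen. Methylation, which was not used in choosing them, was lower in 93-11 than in the other lines in the third run and not in the second.

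Regions particular to 93-11 and the hybrids were also found. From 2351328 to 2354048 (2720 bp) all 3 histone marks were listed in both hybrids and 93-11 and none in Nipponbare. From 1861974 to 1864549 (2575 bp) both hybrids and 93-11 had H3K4me3 together with DNA methylation, and Nipponbare had H3K9ac only. From 4294424 to 4295630 (1206 bp) H3K4me3 was listed in both hybrids and in neither parent, beside H3K27me3 in all 4 lines. From 592515 to 593789 (1274 bp) H3K4me3 was listed in both parents and neither hybrid, and DNA methylation in both hybrids and neither parent.

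The short-arm end of chromosome 10, another arm known as largely heterochromatic, gave a scale for these densities. Below 7.2 Mb, a boundary set for this comparison alone, it had 76.8, 77.2, 80.1 and 67.4 methylation peaks per Mb, near the 71.4 to 77.1 of the chromosome 4 short arm. It had 62.9, 61.9, 57.1 and 50.7 H3K4me3 peaks and 46.4, 47.4, 39.7 and 40.4 H3K27me3 peaks per Mb. The chromosome 4 short arm had fewer peaks of both histone marks per Mb in each line; this difference was not tested.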

How the data were processed

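The authors deposited 1 peak list for each mark and line, in 3 columns with no header (chromosome, start and end), as the values themselves show. Not given in the sources used here: aligner, peak caller, threshold, control library, genome build, and whether positions count from 0 or 1. Positions are those of the deposited files, and width is end minus start. Of the 24 labelled samples, the 8 of mRNA or small RNA are not analysed here. No gene annotation was used.

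A peak was assigned by its midpoint. The short arm spanned 8.7 Mb and the long arm 24.5 Mb, up to the last listed end. Peaks overlapping by at least 1 bp counted as shared or combined, and overlapping peaks of the 4 lines were joined into merged regions, mark by mark. Shares have exact Clopper-Pearson 95% intervals, and differences between arms have intervals combined from these. Density, width and combinations were compared between arms within each line, by an exact two-sided sign-flip permutation test over 4 lines. Named regions followed a rule on width and pattern of lines. The members, lists and comparisons were chosen with earlier results of these data known. The routines were tested on simulated data. The software was Python 3.11.15 with scipy 1.17.1, pandas 2.3.3, numpy 2.4.6 and, for plots, matplotlib 3.10.9.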

Additional observations from a re-analysis of the deposited data

Results flagged for a closer look

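The difference between the arms in how often H3K4me3 peaks overlapped DNA methylation had a different sign in the parents: it was -0.474 percentage points in Nipponbare, with a 95% interval of -3.05 to 2.65 that includes 0, and 8.39 in 93-11, with an interval of 4.54 to 12.8. With 1 library for each mark and line, this difference between the parents was not tested.

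The 2 Mb that follow the short arm at 8.7 Mb, in neither arm, also held peaks. Summed over the 4 lists of a mark, there were 417 DNA methylation, 222 H3K4me3, 232 H3K9ac and 105 H3K27me3 peaks. They were singled out because no comparison between the arms used them.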

How the results depend on the processing

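Setting the short arm against only the first 8.7 Mb of the long arm, a choice made after seeing the data, changed the sign of several mean values. Most of these were then small, and the methylation density ratios of the lines ran from 0.93 to 1.07, so no opposite contrast was shown. The mean log2 density ratio of DNA methylation was then -0.0039 (0.35 against the whole long arm), the log2 width ratios were 0.014 for H3K4me3, 0.038 for H3K9ac and 0.039 for H3K27me3 (-0.19, -0.15 and -0.11), and the differences in percentage points were -2.69 for H3K4me3 with H3K27me3 (0.858), 0.983 for DNA methylation with any histone mark (-6.55) and 0.979 for Nipponbare H3K9ac peaks listed in 93-11 (-12.6). It also moved the listing of Nipponbare peaks in 93-11 to -3.04 points for H3K4me3 and -1.41 for H3K27me3, and of 93-11 methylation peaks in Nipponbare to -7.29. A 50% reciprocal overlap moved the last to -5.80 (-0.177). With peaks of at least their list's median width, the differences were -11.7 points for 93-11 H3K4me3 peaks in Nipponbare, -11.2 for 93-11 H3K9ac peaks and -20.3 for Nipponbare H3K9ac peaks in 93-11. Wide peaks alone gave log2 density ratios of 0.70 for DNA methylation and -1.47 for H3K4me3 (-0.86 with all peaks), and bases covered gave 0.59 for DNA methylation. Among the settings that left out 1 line, H3K4me3 with H3K27me3 ranged from -0.127 to 1.93 and was negative without Nipponbare. Without 1 line, log2 density ratios ranged from 0.33 to 0.36 for DNA methylation, -0.88 to -0.83 for H3K4me3, -0.90 to -0.86 for H3K9ac and -0.90 to -0.88 for H3K27me3. H3K4me3 with DNA methylation then ranged from 4.86 to 7.98 points. The cause of these changes was not tested. Apart from comparing the arms within each line, no pairing by replicate could be made, since each mark and line had 1 library. Read depth and peak heights are unknown, so a region that is not listed may lie just under an unknown threshold.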
